A study of Homo sapiens with 36 samples.

Results

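*IGFBP2*, *LPL*, *ARNT2*, *EYA2*, *IRF8*, *MAMLD1*, *CELF2*, *DGKK*, *ANO4* and *TMEM163* are 10 protein-coding genes out of 61587 genes counted in *TXNL1* knockout (KO) HEK 293T cells. They were selected on measured values. Each had a lower level in all 3 lines that re-expressed TXNL1 than in the line that carried an empty vector, averaged over 3 treatments. That comparison is therefore described for these genes without a test. The tests below concern the differences among the TXNL1-expressing lines, the responses to oxidants, related genes and neighbouring genes. None of these comparisons was itself used to choose the 10. However, all 3 TXNL1-expressing lines had to be lower than vector, which favours genes in which these lines are alike. All 10 passed the filter on low counts, which required at least 10 reads in total over the 3 untreated vector libraries, and 22486 genes were tested. That filter looks only at the vector line, in which the 10 genes are high, but all 10 also passed edgeR's own expression filter, which uses every group. The related and neighbouring genes went through the same filter, so those of low level could enter by being high in the vector line.

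TXNL1 is a thioredoxin-like protein that binds the proteasome, and HEK 293T is a human embryonic kidney cell line. In the study, *TXNL1* was disrupted by CRISPR in HEK 293T cells, single cells were grown into clones, and KO cells were transduced with lentivirus to carry an empty vector or to express WT TXNL1, D162R R234D TXNL1 (DR-RD below), which is deficient in proteasome binding, or SxxS TXNL1, in which the thioredoxin active site is mutated. Each line was left untreated (given DMSO, per the labels) or given an oxidant for 6 h, either arsenite at 100 µM or hydrogen peroxide (H2O2) at 600 µM. Messenger RNA was sequenced in triplicate, which gave 36 libraries in 12 groups. There is 1 vector line, so the loss of TXNL1 and the drift of that line cannot be told apart. There is also 1 line per TXNL1 variant, so a variant and the drift of its line cannot be told apart either. The oxidants were given in triplicate per the methods, but whether the 3 replicates of a group came from separately grown cultures is not given in the sources used here, so p-values measure the spread between these samples.

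The 10 genes have different known functions. *IGFBP2* encodes a secreted protein that binds insulin-like growth factors, and *LPL* encodes lipoprotein lipase, which hydrolyses triglycerides in lipoproteins outside the cell. *ARNT2* is a bHLH-PAS transcription factor that pairs with other members of its family, *IRF8* is an interferon regulatory factor best known from myeloid and B cells, *EYA2* is a phosphatase and a transcriptional co-activator, and *MAMLD1* is a nuclear protein related to the Mastermind co-activators. *CELF2* binds RNA and regulates splicing, *DGKK* is a diacylglycerol kinase, *ANO4* belongs to the anoctamin family of membrane proteins and *TMEM163* is a zinc transporter.

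Promoter sequences are shown because the 10 genes were lower together, and a shared start-site sequence is one property that the selection did not use. RefSeq start sites on GRCh38.p14 lay within 100 bases of the GENCODE gene start for *IGFBP2*, *TMEM163* and *DGKK*. The 250 bases before these starts are printed 5′ to 3′ on the strand of the gene, with capitals marking matches to the motifs described next. The *IGFBP2* window is chr2:216632578-216632827 on the plus strand, the *TMEM163* window is chr2:134719001-134719250 on the minus strand and the *DGKK* window is chrX:50470826-50471075 on the minus strand.
IGFBP2: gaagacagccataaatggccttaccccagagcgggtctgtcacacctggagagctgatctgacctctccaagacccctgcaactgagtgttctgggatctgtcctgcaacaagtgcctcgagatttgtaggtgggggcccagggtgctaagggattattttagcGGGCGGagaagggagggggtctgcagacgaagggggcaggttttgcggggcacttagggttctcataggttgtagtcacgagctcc
TMEM163: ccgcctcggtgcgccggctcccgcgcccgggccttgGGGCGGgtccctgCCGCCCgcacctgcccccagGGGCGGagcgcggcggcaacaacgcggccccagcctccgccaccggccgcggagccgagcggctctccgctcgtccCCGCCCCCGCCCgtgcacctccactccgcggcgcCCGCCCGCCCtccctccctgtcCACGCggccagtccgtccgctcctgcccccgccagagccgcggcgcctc
DGKK: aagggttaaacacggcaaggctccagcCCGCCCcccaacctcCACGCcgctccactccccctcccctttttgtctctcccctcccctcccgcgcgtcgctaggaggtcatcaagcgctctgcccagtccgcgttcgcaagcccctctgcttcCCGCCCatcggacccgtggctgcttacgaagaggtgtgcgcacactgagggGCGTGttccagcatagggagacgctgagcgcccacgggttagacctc

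The 3 windows differed in base composition. GC content was 83.2% for *TMEM163*, 66.0% for *DGKK* and 56.8% for *IGFBP2*, beside a median of 58.0% over 34788 promoter windows of the same length. The windows held 40, 21 and 7 CpG dinucleotides in the same order, against a median of 11. On both strands, 10 motifs were searched: GGGCGG for the GC box, TATAAA for the core promoter box of that name, CCAAT for the box that NF-Y binds, CACGTG for the E-box, ACGTG for the hypoxia response core (also part of the E-box), GCGTG for the xenobiotic response core, TGANTCA for the AP-1 site, TGACNNNGC for the antioxidant response core, TGGGAA for the RBPJ core, and GAAA repeated after a gap of 2 bases for the interferon-stimulated response element. The GC box matched 7 times in the *TMEM163* window, 2 times in *DGKK* and 1 time in *IGFBP2*, and 42.6% of all windows held it. The xenobiotic response core matched 1 time in *TMEM163* and 2 times in *DGKK*, and 32.2% of all windows held it. None of the other 8 motifs matched these 3 windows. With other RefSeq starts included, 7 of the 10 genes had 21 windows in all (*CELF2*, *MAMLD1*, *IRF8* and *ANO4* as well). The xenobiotic response core matched 13 of these 21 windows, at least 1 for each of the 7 genes, the GC box 11, CCAAT 6 and the RBPJ core 5. The E-box and the hypoxia response core matched 0, and the other 4 motifs matched 2 each. Of all windows, 32.0% held CCAAT, 20.8% the RBPJ core, 6.31% the E-box and 18.5% the hypoxia response core. TATAAA was held by 10.8%, the AP-1 site by 6.59%, the antioxidant response core by 10.9% and the interferon-stimulated response element by 3.02%. A gene with several windows has more chances to hold a match, and windows of 1 gene may overlap.

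Libraries held 42072410 to 174119002 counted reads (median 66016833). *TXNL1* itself (chromosome 18, 56597209 to 56651600, minus strand) was measured at 28.6 to 32.2 CPM (reads relative to the library total, scaled by edgeR's TMM factors) in the untreated and H2O2-treated vector libraries, and at 51.7 to 82.0 CPM in the corresponding libraries of the TXNL1-expressing lines. After arsenite, it was at 67.9 to 71.9 CPM in the vector line and at 97.2 to 108.2 CPM in the other lines, so the 2 kinds of line did not overlap under any treatment. Reads remained on the gene in the KO vector line. A cut by CRISPR need not remove the transcript, so this level does not check the knockout, and reads of the introduced cDNA are part of the level in the other lines. Replicate 1 of WT with arsenite and replicate 2 of WT with H2O2 stood apart. Their genes deviated from the group median with an SD of 0.546 and 0.624 on the log2 scale, against 0.0821 to 0.193 for the other 34 libraries. Results below include both, and those whose call or size changed the most are also given without both.

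Within these 2 libraries, the 10 genes did not move as one. In the WT H2O2 library, the deviation from the group mean (log2 CPM) was 0.59 for *IGFBP2*, whereas it was -0.95 for *DGKK*, -0.86 for *CELF2*, -0.74 for *IRF8*, -0.71 for *MAMLD1* and -0.68 for *ARNT2*. In the WT arsenite library, it was 0.39 for *IGFBP2* and -0.67, -0.61, -0.60 and -0.57 for *MAMLD1*, *TMEM163*, *DGKK* and *CELF2*. *IGFBP2* was thus high in both libraries, and *DGKK*, *CELF2* and *MAMLD1* were low in both. The pooled replicate SD in the other 10 groups was 0.15 for *IGFBP2*, 0.14 for *CELF2* and *EYA2*, and 0.24 to 0.44 for *MAMLD1*, *DGKK*, *IRF8* and *TMEM163*.

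Against vector, the mean of the 3 TXNL1-expressing lines over the 3 treatments was lowest for *TMEM163*, at a log2 fold change of -1.30 ± 0.16 (SE; 0.407-fold), followed by *ARNT2* at -1.26 ± 0.09, *MAMLD1* at -1.24 ± 0.12, *LPL* at -1.23 ± 0.09, *DGKK* at -1.13 ± 0.14, *IRF8* at -1.12 ± 0.12 and *IGFBP2* at -1.03 ± 0.08. *CELF2* at -0.77 ± 0.10, *ANO4* at -0.70 ± 0.09 and *EYA2* at -0.62 ± 0.05 (0.653-fold) differed the least. Many of these neighbours in the order differ by less than their SE. The median of the 10 was -1.12 and that of all tested genes was -0.01. The 10 come from the genes called lower in all 3 lines (quasi-likelihood test in edgeR, Benjamini-Hochberg adjusted p under 0.05), so that call is part of the selection and not a result. Of all tested genes, 2.05% were called lower in WT, 0.107% in DR-RD, 0.28% in SxxS and 0.08% in all 3. In the mean of the 3 lines, 0.76% were called in either direction, 141 genes lower and 30 higher. The genes called lower in all 3 lines numbered 18, of which the 10 were chosen. The other 8 were *PDE4B* (-0.99), *PLPP4* (-0.84), *RNF144A* (-0.50), *CACNA1H* (-0.44), *BACE2* (-0.38), *FXYD6* (-0.37), *LRRC3* (-0.29) and *GET1* (-0.19), named after their values were seen. *PDE4B* and *PLPP4* lay within the range of the 10 and outside the list. In bulk RNA, fewer cells that express a gene and less RNA per cell cannot be told apart.

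For 7 of the 10 genes, every vector library lay above all TXNL1-expressing libraries within each of the 3 treatments, as did 12 of the tested genes (0.0534%). The exceptions were *DGKK*, *ANO4* and *TMEM163*. *DGKK* and *ANO4* overlapped in untreated cells, and *ANO4* and *TMEM163* with H2O2. The vector libraries are part of the comparison that chose the 10, so this separation is a description and not a result.

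**Figure D1:**
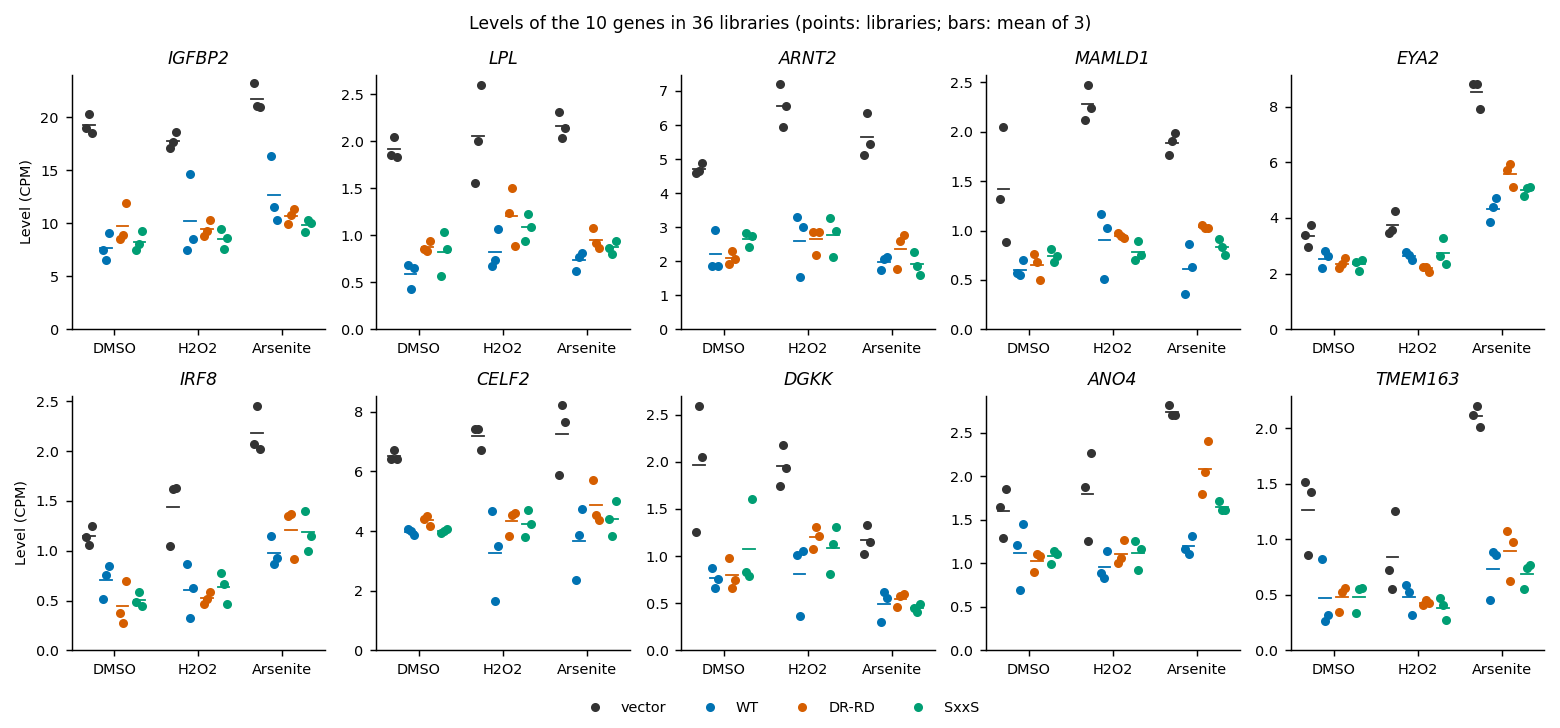
Levels of the 10 genes (y axis, CPM) in all 36 libraries, grouped by treatment (x axis) and coloured by line, with points for libraries and bars for the mean of 3. The vector libraries lie above all others in each panel but those of *DGKK* (untreated), *ANO4* (untreated and H2O2) and *TMEM163* (H2O2), where 1 or 2 other libraries overlap with them, and *EYA2* and *IRF8* are higher with arsenite in every line.

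Among the secreted proteins, *IGFBP2* (ENSG00000115457, chromosome 2, 216632828 to 216664436, plus strand) was the most abundant of the 10. In untreated cells, it was at 19.0, 20.3 and 18.5 CPM in the vector libraries, at 7.47, 6.51 and 9.10 in WT, at 8.55, 8.87 and 11.97 in DR-RD and at 7.47, 8.06 and 9.25 in SxxS. With H2O2, the vector libraries held 17.1, 17.7 and 18.6 CPM, and the 9 other libraries ran from 7.45 through a median of 8.83 to 14.7. With arsenite, the vector libraries held 23.2, 21.1 and 21.0 CPM, and the others ran from 9.19 through 10.3 to 16.3. All vector libraries lay above the other lines under each treatment, and the highest TXNL1-expressing values, 14.7 and 16.3 CPM, came from the 2 WT libraries that stood apart.

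*LPL* (ENSG00000175445, chromosome 8, 19901717 to 19967259, plus strand) was at 1.86, 2.05 and 1.84 CPM in untreated vector cells. The corresponding values were 0.689, 0.428 and 0.651 in WT, 0.855, 0.832 and 0.944 in DR-RD and 0.569, 1.03 and 0.852 in SxxS. With H2O2, *LPL* was at 1.56, 2.01 and 2.60 CPM in vector, 0.678, 0.734 and 1.07 in WT, 1.24, 1.51 and 0.883 in DR-RD, and 0.941, 1.22 and 1.09 in SxxS. The lowest vector library and the highest DR-RD library with H2O2 were separated by a narrow gap. With arsenite, the values were 2.32, 2.04 and 2.14 CPM in vector, 0.621, 0.767 and 0.816 in WT, 1.08, 0.917 and 0.866 in DR-RD, and 0.862, 0.806 and 0.944 in SxxS. WT was the lowest line by its mean under each treatment.

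Among the regulators of transcription, *ARNT2* (ENSG00000172379, chromosome 15, 80404350 to 80597933, plus strand) was at 4.59, 4.66 and 4.88 CPM in untreated vector libraries and at 1.86 to 2.92 (median 2.29) in the 9 untreated libraries that expressed TXNL1. With H2O2 the vector libraries held 7.20, 5.93 and 6.56 CPM, and the others 1.53 to 3.30 (median 2.87). With arsenite they held 5.11, 6.35 and 5.44 CPM, and the others 1.59 to 2.76 (median 2.06). Under every treatment, a gap of more than 1 CPM separated the lowest vector library from the highest other library. One microRNA gene on the same strand and 3 long non-coding RNA genes on the opposite strand overlap *ARNT2*, and how the counting treated such reads is not given in the sources used here.

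*IRF8* (ENSG00000140968, chromosome 16, 85899116 to 85922606, plus strand) was at 1.14, 1.06 and 1.25 CPM in untreated vector libraries and at 0.272 to 0.848 (median 0.516) in the others. With arsenite, the vector libraries reached 2.08, 2.45 and 2.03 CPM, and the others 0.862 to 1.40 (median 1.14). After H2O2, the vector values were 1.05, 1.62 and 1.63 CPM, against 0.326 to 0.862 (median 0.588). The TXNL1-expressing lines with arsenite thus reached levels close to those of untreated vector cells, while staying below the arsenite-treated vector line.

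*EYA2* (ENSG00000064655, chromosome 20, 46894624 to 47188844, plus strand) was at 3.37, 2.94 and 3.76 CPM in untreated vector cells, and at 2.19, 2.80 and 2.62 in WT, 2.19, 2.33 and 2.54 in DR-RD, and 2.43, 2.11 and 2.51 in SxxS. With arsenite, the values were 8.80, 8.81 and 7.91 CPM in vector, 3.86, 4.41 and 4.72 in WT, 5.71, 5.94 and 5.10 in DR-RD, and 4.77, 5.09 and 5.12 in SxxS. The vector libraries lay above the other lines in both conditions, and every line was higher with arsenite. With H2O2, the vector libraries held 3.46, 3.56 and 4.24 CPM and the others 2.06 to 3.28 (median 2.49). One gene on the same strand (ENSG00000239783) overlaps *EYA2*, so reads may be shared.

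*MAMLD1* (ENSG00000013619, chromosome X, 150361422 to 150514178, plus strand) varied widely among the untreated vector libraries, at 1.32, 2.05 and 0.881 CPM, and the lowest of these was just above the highest of the other untreated libraries (0.817, median 0.684). With H2O2 the vector libraries held 2.12, 2.47 and 2.24 CPM, and the others 0.510 to 1.17 (median 0.919). With arsenite they held 1.77, 1.90 and 1.98 CPM, and the others 0.353 to 1.06 (median 0.862). The lowest values with H2O2 and with arsenite were those of the WT libraries that stood apart.

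The splicing regulator *CELF2* (ENSG00000048740, chromosome 10, 10798397 to 11336675, plus strand) had tight replicates in untreated cells. Vector held 6.51 ± 0.179 CPM (SD, n = 3), WT 3.98 ± 0.0966 and DR-RD 4.36 ± 0.178, while the SxxS libraries held 3.93, 3.995 and 4.07. With H2O2, the means were 7.18 ± 0.413 in vector, 3.27 ± 1.53 in WT, 4.32 ± 0.427 in DR-RD and 4.25 ± 0.457 in SxxS. With arsenite, they were 7.24 ± 1.22, 3.66 ± 1.20, 4.87 ± 0.730 and 4.42 ± 0.572. The wide SD in treated WT cells comes with the 2 libraries that stood apart, which held 1.64 and 2.36 CPM.

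Among the genes for membrane and lipid-signalling proteins, *DGKK* (ENSG00000274588, chromosome X, 50365409 to 50470825, minus strand) was at 1.25, 2.59 and 2.06 CPM in untreated vector libraries and at 0.665 to 1.61 (median 0.791) in the others, and 1 of those 9 overlapped with vector. With arsenite, the vector libraries held 1.03, 1.33 and 1.15 CPM and the others 0.301 to 0.623 (median 0.491). With H2O2, they held 1.74, 2.18 and 1.94 CPM, and the others 0.367 to 1.31 (median 1.08). All lines were low with arsenite, and the vector line remained above the others there.

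*ANO4* (ENSG00000151572, chromosome 12, 100717526 to 101128641, plus strand) had the most overlap between lines. Untreated vector libraries held 1.65, 1.29 and 1.85 CPM, with 1 of the 9 other libraries (0.689 to 1.45) at or above the lowest, and H2O2-treated vector libraries held 1.88, 1.26 and 2.26 CPM, with 2 of the 9 others (0.836 to 1.27) at or above the lowest. With arsenite, *ANO4* was at 2.82, 2.71 and 2.70 CPM in vector, 1.16, 1.10 and 1.32 in WT, 1.79, 2.05 and 2.40 in DR-RD, and 1.71, 1.61 and 1.61 in SxxS. The arsenite-treated groups fell into separate ranges, with WT lowest, then SxxS, DR-RD and vector. A long non-coding RNA gene (ENSG00000257325) overlaps *ANO4* on the opposite strand.

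*TMEM163* (ENSG00000152128, chromosome 2, 134455759 to 134719000, minus strand) had the lowest counts of the 10, from 11 to 282 reads per library. It was at 1.51, 0.857 and 1.43 CPM in untreated vector libraries and at 0.261 to 0.826 (median 0.530) in the others. With H2O2, the vector libraries held 0.728, 0.555 and 1.25 CPM, and 1 of the 9 others (0.273 to 0.585) was above the lowest of these. With arsenite, the vector libraries held 2.12, 2.20 and 2.02 CPM, and the others 0.451 to 1.08 (median 0.773), which left a wide gap between the lines.

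Per kilobase of the gene length in the deposited table, levels in untreated vector cells followed the order *IGFBP2* (4.07 ± 0.194 CPM per kb, SD, n = 3), *EYA2* (0.928 ± 0.114), *ARNT2* (0.609 ± 0.0197), *CELF2* (0.591 ± 0.0162), *LPL* (0.464 ± 0.0285), *ANO4* (0.320 ± 0.0566), *DGKK* (0.262 ± 0.0898), *IRF8* (0.239 ± 0.0198), *MAMLD1* (0.213 ± 0.0887) and *TMEM163* (0.186 ± 0.0526). *ARNT2* and *CELF2* differed by about their SD. Among the last 5 genes, each differed from the next in the order by less than the larger SD of the pair. The first and last of these 5, *ANO4* and *TMEM163*, lay further apart than either SD. The median over tested genes was 1.98 CPM per kb. Only *IGFBP2* of the 10 was above it, at percentile 62.1 of the tested genes, and the other 9 were between percentiles 19.1 and 38.9.

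Whether the 3 TXNL1-expressing lines differed in the levels of these genes was tested over the 3 treatments. Each variant is present in 1 line, so a difference between lines cannot be assigned to the variant. WT was compared with DR-RD, WT with SxxS and DR-RD with SxxS, which gave 30 results for the 10 genes. One was called: *LPL* was lower in WT than in DR-RD by a log2 difference of -0.50 ± 0.13 (SE; adjusted p = 0.0386, edgeR), with WT lower by its mean in all 3 treatments. Over all tested genes, 2.09% were called in that comparison. Without the 2 WT libraries that stood apart, the *LPL* difference was -0.42 ± 0.14 (adjusted p = 0.0673) and no result was called. *LPL* also had the largest difference between WT and SxxS (-0.36 ± 0.13, adjusted p = 0.203), a comparison in which edgeR called 0.0% of tested genes, although 4205 genes had an unadjusted p under 0.05 and DESeq2 called 397. Of the 10 genes, 1 (*LPL*) had an unadjusted p under 0.05 in this comparison, and DESeq2 gave none of the 10 an adjusted p. Between DR-RD and SxxS, 0.0578% of tested genes were called and 0 of the 10 by edgeR or by DESeq2, which gave 5 of them no adjusted p, with 0 at an unadjusted p under 0.05 and the largest differences for *TMEM163* (0.18, 95% interval -0.24 to 0.59) and *IGFBP2* (0.17, -0.03 to 0.37).

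The intervals show how much difference between variants the data allow. For *EYA2*, which had the narrowest, WT minus DR-RD was 0.0019 (95% interval -0.13 to 0.14) and WT minus SxxS was -0.05 (-0.19 to 0.09), which is small beside the -0.62 between the 3 lines and vector. For *TMEM163*, the widest, WT minus DR-RD was -0.05 (-0.47 to 0.36) and WT minus SxxS was 0.12 (-0.29 to 0.54). *CELF2*, *ANO4* and *MAMLD1* were lower in WT than in DR-RD by -0.32, -0.29 and -0.35 with unadjusted p = 0.0195, 0.0201 and 0.0378, and adjusted p = 0.159, 0.162 and 0.211 in edgeR's test. Without the 2 WT libraries, these differences were -0.12, -0.24 and -0.14. For *IGFBP2*, the same step moved WT minus DR-RD from 0.01 to -0.18 and WT minus SxxS from 0.18 to -0.02, and for *DGKK* it moved WT minus SxxS from -0.28 to -0.05.

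**Figure D2:**
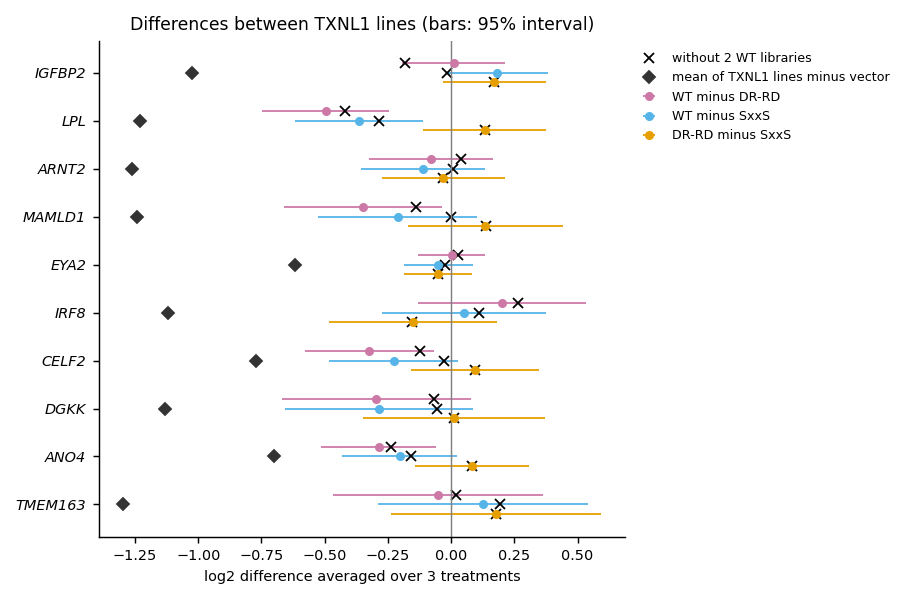
Log2 differences (x axis, averaged over the 3 treatments) between the TXNL1-expressing lines for each gene, with circles for the estimate, bars for the 95% interval, crosses for the estimate without the 2 WT libraries that stood apart, and diamonds for the mean of the 3 lines minus vector. The circles lie within -0.50 to 0.20 and the diamonds between -1.30 and -0.62.

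Arsenite changed 6 of the 10 genes when averaged over the 4 lines, against 68.8% of all tested genes, so the share of the 10 that changed is near the background. *EYA2* rose the most, by a log2 fold change of 1.11 ± 0.06 (SE; 2.16-fold, adjusted p = 2.94e-16, edgeR), and all 12 arsenite libraries (3.86 to 8.81 CPM) lay above all 12 untreated libraries (2.11 to 3.76). *IRF8* rose by 1.02 ± 0.14 (2.03-fold, adjusted p = 2e-07), with every arsenite library above the untreated ones in all 4 lines. *TMEM163* rose by 0.69 ± 0.17 (adjusted p = 0.000963) and *ANO4* by 0.62 ± 0.10 (adjusted p = 2.16e-06), with separate ranges in 2 and in 3 lines. These 4 include 2 transcriptional regulators and 2 membrane proteins.

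*IGFBP2* rose by 0.32 ± 0.09 (1.25-fold, adjusted p = 0.00224), and by 0.24 ± 0.05 without the 2 WT libraries that stood apart. *DGKK* was the only one of the 10 that fell, by 0.81 ± 0.16 on the log2 scale (0.569-fold, adjusted p = 6.65e-05), with all arsenite libraries below the untreated ones in 3 lines. *MAMLD1* was at 0.29 ± 0.14 (adjusted p = 0.0604), and without the 2 WT libraries it was called at 0.35 ± 0.11 (adjusted p = 0.00356). *LPL* (0.16 ± 0.11, adjusted p = 0.181), *CELF2* (0.08 ± 0.11, adjusted p = 0.535) and *ARNT2* (-0.04 ± 0.11, adjusted p = 0.735) were not called. The median over the 10 was 0.30, beside 0.06 over all tested genes.

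Hydrogen peroxide changed 2 of the 10 genes, against 12.1% of tested genes. *MAMLD1* rose by 0.46 ± 0.14 (1.37-fold, adjusted p = 0.0241, edgeR), and the H2O2 libraries lay above the untreated ones in 2 lines. *LPL* rose by 0.37 ± 0.11 (1.29-fold, adjusted p = 0.0241), while the libraries overlapped in every line. *ARNT2* was at 0.28 ± 0.11 (adjusted p = 0.0919), and without the 2 WT libraries it was called at 0.35 ± 0.08 (adjusted p = 0.00129). *EYA2* and *IRF8*, the genes that rose the most with arsenite, were at 0.09 ± 0.06 and 0.15 ± 0.15 with H2O2, and *DGKK*, which fell with arsenite, was at 0.16 ± 0.16. The 2 oxidants share their untreated libraries.

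Within single lines, arsenite changed 4 of the 10 genes in vector, 2 in WT, 5 in DR-RD and 4 in SxxS, against 43.4%, 53.6%, 44.0% and 43.6% of tested genes in the same order. *EYA2* changed by 1.34 ± 0.12 in vector, 1.25 ± 0.12 in DR-RD, 1.09 ± 0.12 in SxxS and 0.77 ± 0.12 in WT, each called by edgeR. *ANO4* changed by 1.03 ± 0.20 in DR-RD, 0.78 ± 0.19 in vector and 0.61 ± 0.20 in SxxS, each called, and was at 0.08 ± 0.20 in WT (adjusted p = 0.771). *IRF8* changed by 1.47 ± 0.29 in DR-RD, 1.21 ± 0.28 in SxxS and 0.93 ± 0.26 in vector, each called, and was at 0.48 ± 0.28 in WT (adjusted p = 0.152), or 0.32 without the 2 WT libraries. *IGFBP2* was called only in WT, at 0.72 ± 0.18, and was at 0.45 there without replicate 1 of WT with arsenite and replicate 2 of WT with H2O2. With H2O2, edgeR called 0 of the 10 within a single line, against 1.35% of tested genes in vector, 8.06% in WT, 1.03% in DR-RD and 1.02% in SxxS, and 4 results had an unadjusted p under 0.05. Without the 2 WT libraries, 3 results were called: *MAMLD1* in WT (0.84, adjusted p = 0.0177) and in vector (0.67, adjusted p = 0.0162), and *ARNT2* in vector (0.47, adjusted p = 0.0380).

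**Figure D3:**
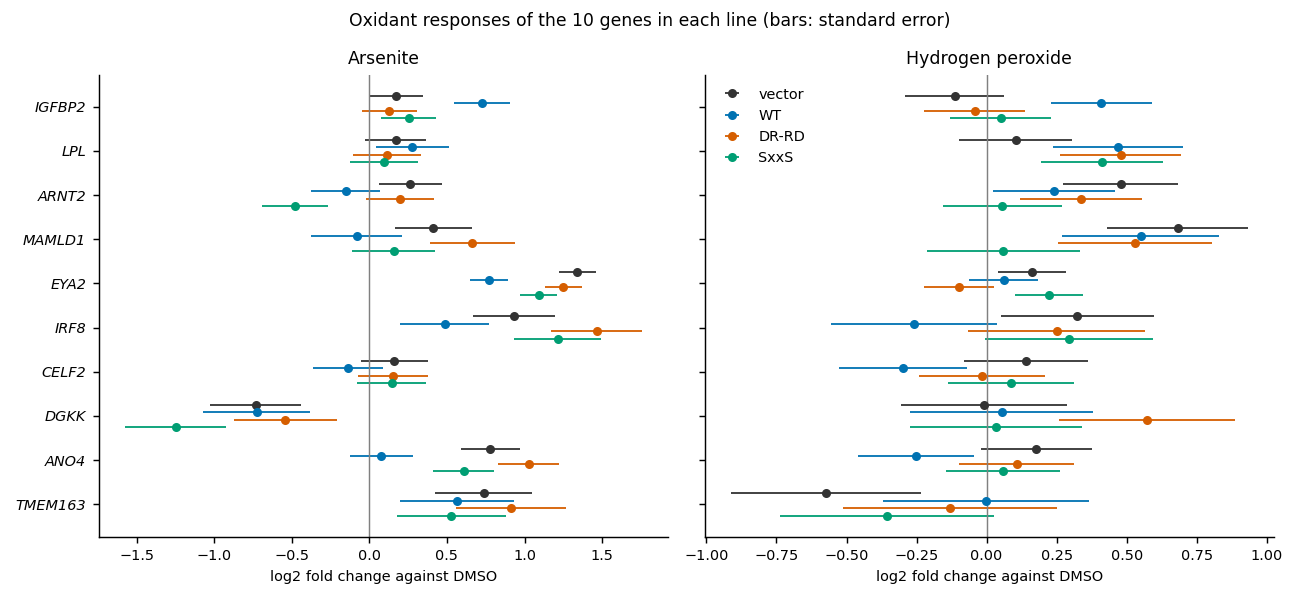
Log2 fold change against untreated cells (x axis) of each gene in each line, with bars for the SE, for arsenite on the left and hydrogen peroxide on the right. *EYA2* lies to the right of 0 in every line with arsenite, from 0.77 in WT to 1.34 in vector, and *DGKK* lies to the left.

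These differences between lines were tested as an interaction over the 4 lines. For arsenite, edgeR called 0.0% of tested genes, with 1432 at an unadjusted p under 0.05 and 35 called by DESeq2. Of the 10 genes, 0 were called by either tool, DESeq2 giving 7 of them no adjusted p, and *EYA2* (unadjusted p = 0.0118, adjusted p = 0.700, edgeR) and *ANO4* (unadjusted p = 0.0170, adjusted p = 0.707) were the 2 with an unadjusted p under 0.05. For H2O2, 0.685% of tested genes were called and 0 of the 10 by either tool, with 0 at an unadjusted p under 0.05 and a smallest unadjusted p of 0.193 for *IGFBP2* in edgeR's fit. The difference between the mean response of the 3 TXNL1-expressing lines and that of vector ran from -0.41 ± 0.24 (*ARNT2*) to 0.20 ± 0.20 (*IGFBP2*) for arsenite and from -0.30 ± 0.30 (*MAMLD1*) to 0.41 ± 0.41 (*TMEM163*) for H2O2. EdgeR called 0.0% of tested genes and 0 of the 10 in either (1 of the 10 with an unadjusted p under 0.05 for arsenite, *EYA2*, at -0.30 ± 0.14, and 0 for H2O2). In untreated cells, the values against vector ran from -0.41 (*EYA2*) to -1.68 (*LPL*) in WT, from -0.52 (*EYA2*) to -1.43 (*TMEM163*) in DR-RD and from -0.52 (*EYA2*) to -1.40 (*TMEM163*) in SxxS. With arsenite, they ran from -0.77 (*IGFBP2*) to -1.72 (*MAMLD1*), from -0.39 (*ANO4*) to -1.25 (*TMEM163*) and from -0.72 (*CELF2*) to -1.61 (*TMEM163*) in the same order of lines. Without the 2 WT libraries, the values of WT with arsenite were -1.01 for *IGFBP2* and -1.40 for *MAMLD1*.

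To see whether the families and pathways of these genes were also lower, 10 lists of 131 related genes were examined, of which 108 were tested. In the mean of the 3 lines against vector, 1 of the 108 was called, beside 0.76% of all tested genes. The median log2 fold change over the 108 was -0.05, and that of all genes was -0.01. An unadjusted p under 0.05 was found for 12 of the 108, beside 2053 of all 22486 tested genes, and DESeq2 also called 1 of the lists' genes. The gene that edgeR called was *IRF2BPL*, a member of the list around *IRF8*, at -0.18 ± 0.04 (SE, adjusted p = 0.0435, edgeR). The other 9 of the 10 tested genes in that list were not called, and the list's median was -0.06.

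Of the 14 tested genes of the insulin-like growth factor axis, 0 were called (1 at an unadjusted p under 0.05) and the median was -0.08. *IGFBP3*, another binding protein, had the smallest p, at -2.04 ± 0.82 (adjusted p = 0.415), with 0 reads in 17 of the 36 libraries. Its mean level was 0.085 CPM in vector and 0.051 CPM in the other lines, so the size of its fold change is unsure. Of the 12 genes of extracellular lipolysis, 0 were called (2 at an unadjusted p under 0.05), with a median of -0.03, and the fatty acid receptor *CD36* had the smallest p at -0.54 ± 0.21 (adjusted p = 0.384). Of the 16 other bHLH-PAS factors, 0 were called (2 at an unadjusted p under 0.05), with a median of -0.07, and *SIM2* was at -0.14 ± 0.05 (adjusted p = 0.316). The medians of these 3 lists were near 0, while single genes of low level, such as *IGFBP3*, had values as far from 0 as those of *IGFBP2*, *LPL* and *ARNT2* (-1.03 to -1.26), with a wide SE.

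The 5 other lists described here had the same form, with 0 called by edgeR in each. *DGKZ* had the smallest p among 7 diacylglycerol kinases (0.08 ± 0.03, adjusted p = 0.351), *CELF1* among 7 CELF and MBNL splicing factors (0.06 ± 0.03, adjusted p = 0.420), and *ANO2* among 6 anoctamins (-0.69 ± 0.26, adjusted p = 0.344). *HES5* had the smallest p among 18 Notch and Mastermind genes (-0.46 ± 0.21, adjusted p = 0.506) and *SLC30A3* among 8 zinc efflux transporters (0.15 ± 0.06, adjusted p = 0.369). In each of these 5 lists, the named gene was the only 1 with an unadjusted p under 0.05.

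The 10 genes lie on 8 chromosomes, with *IGFBP2* and *TMEM163* both on chromosome 2 and *DGKK* and *MAMLD1* both on X. In the mean of the 3 lines against vector, 131 genes whose start lies within 1 Mb of the start of one of the 10 were tested. An unadjusted p under 0.05 was found for 11 of them, beside 2053 of all 22486 tested genes. EdgeR called 2 of them (1.53%, beside 0.76% of all tested genes), and DESeq2 also called 2. Both were long non-coding RNA genes near *ARNT2*. *ARNT2-DT*, which starts at -136 bases relative to the start of *ARNT2* and is transcribed in the opposite direction, was at -1.03 ± 0.20 (adjusted p = 0.00474, edgeR), close to the -1.26 ± 0.09 of *ARNT2*, at a mean level of 0.292 CPM. ENSG00000270919 lies within *ARNT2* on the opposite strand and was at -1.05 ± 0.26 (adjusted p = 0.0435) at 0.063 CPM. The labels describe libraries that keep strand, but whether the counting used it is not given in the sources used here. Without it, reads of ENSG00000270919 and of *ARNT2* cannot be told apart. The low-count filter used only untreated vector libraries, so genes of such low level can pass it by being high there. With edgeR's own expression filter, 1 neighbour was called.

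For the other 9 genes, 0 neighbours were called by edgeR, with 7 at an unadjusted p under 0.05, and the median of the neighbours ran from -0.15 (2 neighbours of *CELF2*) to 0.00097 (15 neighbours of *ANO4*). *IGFBP5*, another insulin-like growth factor binding protein and the nearest tested neighbour of *IGFBP2*, 62721 bases away, was at -0.08 (unadjusted p = 0.224). *INTS10*, the nearest to *LPL*, was at 0.02 and *EMC8*, the nearest to *IRF8*, was at 0.07. Of the neighbours with a mean of at least 1 CPM, those of *ARNT2* ran from -0.13 to 0.19, those of *TMEM163* from -0.10 to -0.01 and those of *MAMLD1* from -0.09 to 0.05.

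**Figure D4:**
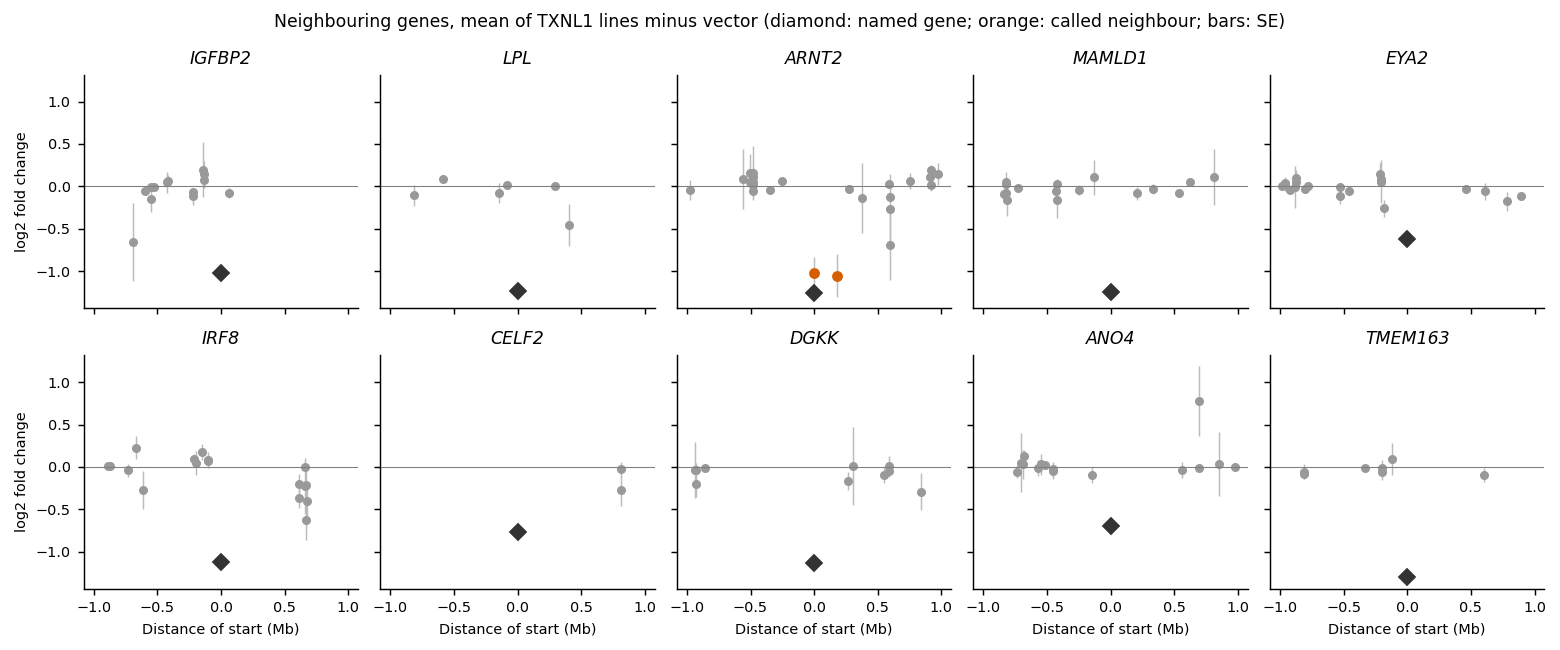
Log2 fold change of the mean of the 3 TXNL1-expressing lines against vector (y axis) for tested genes within 1 Mb of each of the 10 genes, by the distance between their starts (x axis, Mb, positive downstream). Diamonds mark the 10 genes, orange points the 2 called neighbours, both near *ARNT2*, and bars the SE.

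Among 15666 other genes with a mean of at least 1 CPM, those with the pattern most like the 10 were sought by Pearson's r over the 12 group means of log2 CPM, after subtracting each treatment's mean. These points share the vector libraries that chose the 10, and r is given as a description. The 5 most alike were *BACE2* (r = 0.949), *FXYD6-AS1* (0.941), *ADSS1* (0.933), *PRDM16* (0.928) and *FXYD6* (0.925). Their log2 fold changes against vector, from -0.36 (*ADSS1*) to -0.49 (*PRDM16*), were smaller than those of all 10 genes. *FXYD6* and *FXYD6-AS1* overlap on opposite strands, and their reads cannot be told apart if the counting did not use strand. The 5 most opposite were *UFSP2* (r = -0.948), *ACAT1* (-0.947), *CEP89* (-0.926), *CALCB* (-0.920) and *VPS37C* (-0.918), at 0.10 to 0.35 against vector. *TXNL1* itself had r = -0.872 and was the 25th most opposite.

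Within groups, the deviations of the 10 genes were correlated in both directions. The median correlation of their deviations from the group means (log2 CPM) over 45 pairs of genes was 0.0825 across 36 libraries, with 29 pairs positive, and it ran from -0.807 (*IGFBP2* and *CELF2*) to 0.677 (*DGKK* and *CELF2*). Without the 2 WT libraries that stood apart, it was -0.0445, with 22 pairs positive, and ran from -0.650 (*LPL* and *ARNT2*) to 0.534 (*IGFBP2* and *ANO4*). These correlations are descriptions over libraries that share groups.

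Since *IRF8* is known from blood cells and *LPL* from adipocytes, marker genes of other cell types were examined. The summed level of 10 blood and immune markers was 1.89 to 3.55 CPM in the vector libraries and 2.09 to 6.47 CPM in the other lines, and the defining markers *PTPRC* and *SPI1* had 24 and 139 reads over all 36 libraries. Of 6 adipocyte markers, *ADIPOQ* had 4 reads and *FABP4* 25 in all, and the summed level, 19.1 to 35.99 CPM in vector and 19.9 to 39.8 CPM elsewhere, was mostly that of *PPARG*. The sum over 5 fibroblast markers was 16.5 to 32.5 CPM in vector and 13.6 to 26.1 CPM elsewhere. In the mean of the 3 lines against vector, all 5 were below 0 (-0.96 to -0.05, median -0.17), 2 of them with an unadjusted p under 0.05 in edgeR. The 3 tested blood and immune markers (0.04 to 0.30) and the 2 tested adipocyte markers (0.05 to 0.50) were all above 0. None of these 3 lists had a called gene in edgeR's comparison of the 3 lines with vector (3 genes had an unadjusted p under 0.05), and no marker was at 0 in all libraries. The 8 markers of HEK 293T cells summed to 599.6 to 1178 CPM in all lines, mostly from *IRS4* and *VIM*. Others were at low levels, such as *PAX2* (0.39 CPM in vector, 0.47 elsewhere). Of the 8, 3 had an unadjusted p under 0.05 in edgeR. *NEFL* was called lower (-0.31 ± 0.07, adjusted p = 0.0272, edgeR), and *PAX2* was higher but not called (0.40 ± 0.14). The part of these markers in the differences of the 10 genes was not tested.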

How the data were processed

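Messenger RNA was sequenced from 36 libraries in 12 groups of 3. The sample labels name the line, treatment and replicate of each. The doses are from the study's methods. The authors used qAlign (QuasR) to align read pairs of 100 bp to GRCh38 and deposited raw counts per gene, not normalized and not pooled, with a gene length per row. The labels describe strand-specific libraries. The annotation release and the use of strand or of both mates in counting are not given in the sources used here. Of 61587 identifiers, 61369 were found in GENCODE 44, which gave symbols and positions. Promoters are from RefSeq.

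Counts were fitted with edgeR 4.0.16 in R 4.3.3: TMM scaling, 12 group means, robust quasi-likelihood tests and Benjamini-Hochberg adjustment over 22486 genes with at least 10 counts over the 3 untreated vector libraries, the filter of the study. Calls required an adjusted p under 0.05. Levels are CPM relative to TMM-scaled totals. Intervals are normal 95% intervals from the SE. The 10 genes, the lists and the tests were chosen with earlier results of these data known. Named besides the 10 and *TXNL1* are the called related genes, or the gene of smallest p in a list without one, the called neighbours and the 5 genes most alike and most opposite in pattern. Other genes are marked. The values of 1 of the 10 lists of related genes, the gene of smallest p included, are not reported here on their own. Alternatives were DESeq2 1.42.0, DESeq2 size factors, total counts, 2 other filters, a replicate block, halved counts, leaving out both WT libraries that stood apart, and leaving out each library. The code was tested on simulated data. The 10 genes rest on 11 to 2703 reads per library.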

Additional observations from a re-analysis of the deposited data

How the results depend on the processing

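The median log2 fold change of the 10 genes against vector was -1.12 and stayed between -1.17 and -1.08 over 44 alternatives. That comparison chose the 10 genes from these same libraries, so its stability is a description and not a result. The 6 arsenite calls and the H2O2 call of *MAMLD1* held in all 44, and none of these, nor the calls of *LPL*, changed direction. Without both outlying WT libraries, 13 of 150 results of the 10 genes changed sign, of which 0 were called with or without them, 7 results were called only without them and 1 only with them. The sign changes include H2O2 for *IGFBP2* (0.08 to -0.02) and *CELF2* (-0.02 to 0.05). The difference of *LPL* between WT and DR-RD was lost in 14 alternatives (-0.57 to -0.42, adjusted p = 0.00894 to 0.0917 over all, edgeR and DESeq2), among them 10 counts over all libraries and both outlying WT libraries left out, each of which left 0 calls between the TXNL1-expressing lines. Leaving out 1 library gave 0 to 2 calls there, and 2 came without replicate 1 of WT with H2O2, where *CELF2* was added (-0.44, adjusted p = 0.0333). The H2O2 calls numbered 1 to 3 with 1 library left out, and *LPL* was lost in 5 of these (replicate 2 of untreated WT, replicate 1 of untreated SxxS, and H2O2 replicate 3 of vector, replicate 3 of WT and replicate 2 of DR-RD). The called related gene was lost (0 calls) with total counts, 10 counts over all libraries and the replicate block, and leaving out 1 library gave 0 to 1. The called neighbours went from 2 to 1 with filterByExpr, 10 counts over all libraries, the replicate block and halved counts, and leaving out 1 library gave 1 to 2. The causes were not tested. Of 198 same-number pairs of libraries from different groups, 44 had a correlation over 0.1 (median 0.0155, from -0.855 to 0.784). Pairs of unlike number were not compared, so whether the replicate number pairs the samples was not tested. The replicate block changed no other call listed here. Reads per library were as few as 11 for *TMEM163*, 18 for *LPL* and *IRF8*. With halved counts, 1 result was called between the TXNL1-expressing lines. Halving divided the counts without redrawing reads, so it does not show which calls would hold at lower depth. Over all tested genes, the counts of calls by edgeR, by DESeq2 and by edgeR without both outlying WT libraries were 1062, 2167 and 1283 for WT against vector, 30, 57 and 218 for DR-RD, 74, 153 and 437 for SxxS, 171, 315 and 731 for their mean, 469, 1230 and 1019 for WT against DR-RD, 0, 397 and 20 for WT against SxxS, 13, 65 and 230 for DR-RD against SxxS, 2716, 3180 and 6430 for H2O2, 0, 35 and 46 for the arsenite interaction and 154, 320 and 340 for the H2O2 interaction.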
